A study of Bos grunniens and Bos grunniens x Bos taurus with 6 samples.

Results

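The protein components of the cytosolic ribosome are encoded by a family of nuclear genes whose names begin with RPL for the large subunit and RPS for the small one. Their mRNAs were followed here in back muscle of cattle-yak and yak. Members were chosen by gene symbol alone, without kinases and binding proteins that share the prefix. For each of 83 matching symbols the gene identifier with most reads under that symbol was taken, which gave 81 of the 31044 genes in the table, since 2 symbols, RPL10L among them, shared the identifier of another member. Of these, 78 reached 30 reads over all libraries and were tested. RPL37, RPL39 and RPS28 did not, with 26, 12 and 23 reads. RPL41 was not analysed here.

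Ribosomal proteins assemble with ribosomal RNA in fixed proportion, so cells make the set in matched amounts. Most of these mRNAs begin with a pyrimidine-rich tract through which TOR signalling controls their translation. A flexible stalk on the large subunit, built from RPLP0, RPLP1 and RPLP2, recruits the factors that drive elongation. Striated muscle of human and mouse also expresses RPL3L, a paralog that can take the place of RPL3 near the catalytic centre.

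The series compared 3 libraries of longissimus dorsi from cattle-yak, a cross between cattle and yak, with 3 from yak. Full-length cDNA was amplified by PCR and read on nanopores, so several reads can come from 1 transcript molecule. No allele, treatment, age, sex or batch is given in the labels, and nothing in them says that the libraries of a group came from separate animals. The p-values therefore measure only the spread between these libraries, which may be technical.

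Library totals ran from 2366057 to 2769106 counts in cattle-yak and from 2350851 to 2502603 counts in yak. Principal component 1 held 46.6% of the variance and separated the groups. Skeletal muscle markers summed to between 119330 and 137160 CPM (counts scaled to a common library size with edgeR's TMM method) in cattle-yak, against 182430 to 205750 CPM in yak. Most of this sum was the ACTA1 identifier, with 62315 to 81751 CPM in cattle-yak and 103410 to 128800 CPM in yak. Only 1.57% of the reads of that identifier bore the symbol. Of 7 tested muscle markers, DES rose and 3 fell, among them the oxygen store MB. Of 7 tested macrophage markers, CD163 and CTSS rose, and the list summed to between 48.8 and 112 CPM in cattle-yak and between 21.9 and 52.4 CPM in yak. Of 5 tested fibroblast markers, 3 fell, both tested erythroid markers fell, and VWF rose among 5 endothelial markers. Several of these calls rest on few reads over all libraries: 63 for CD163, 59 for VWF, and 46 and 67 for the erythroid HBB and HBA. HBB had 8.90, 9.62 and 0.456 CPM in yak, against 0.391, 0.385 and 0.363 CPM in cattle-yak. No tested lymphocyte, adipocyte, smooth muscle or satellite cell marker passed. In whole muscle, fewer cells of a type and less RNA per cell cannot be told apart, and the part of these shifts in the results below was not tested.

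Most ribosomal protein genes differed little between the hybrid and yak. In cattle-yak, 3 genes rose and 3 fell, and 72 did not pass (edgeR quasi-likelihood test, Benjamini-Hochberg adjusted p under 0.05 over all genes). That is 7.69% of the members, beside 10% of all 10397 genes tested (4.92% rose and 5.08% fell). The balance of directions depended on the scaling: with library size alone, 5 members rose and 1 fell, and 763 genes rose and 310 fell. The median log2 fold change of cattle-yak over yak was -0.02 over the members and 0.04 over all genes. Members stayed close to that median. Differences under 0.5 on the log2 scale were seen for 69 of 78, or 88.5%, against 55.0% of all genes. Among genes with at least 1000 reads the shares were 92.4% of 66 members and 69.3% of 1169 genes. Levels of the groups did not overlap in 18 members, 6 higher and 12 lower in cattle-yak, or 23.1% beside 29.9% of all genes.

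**Figure D1:**
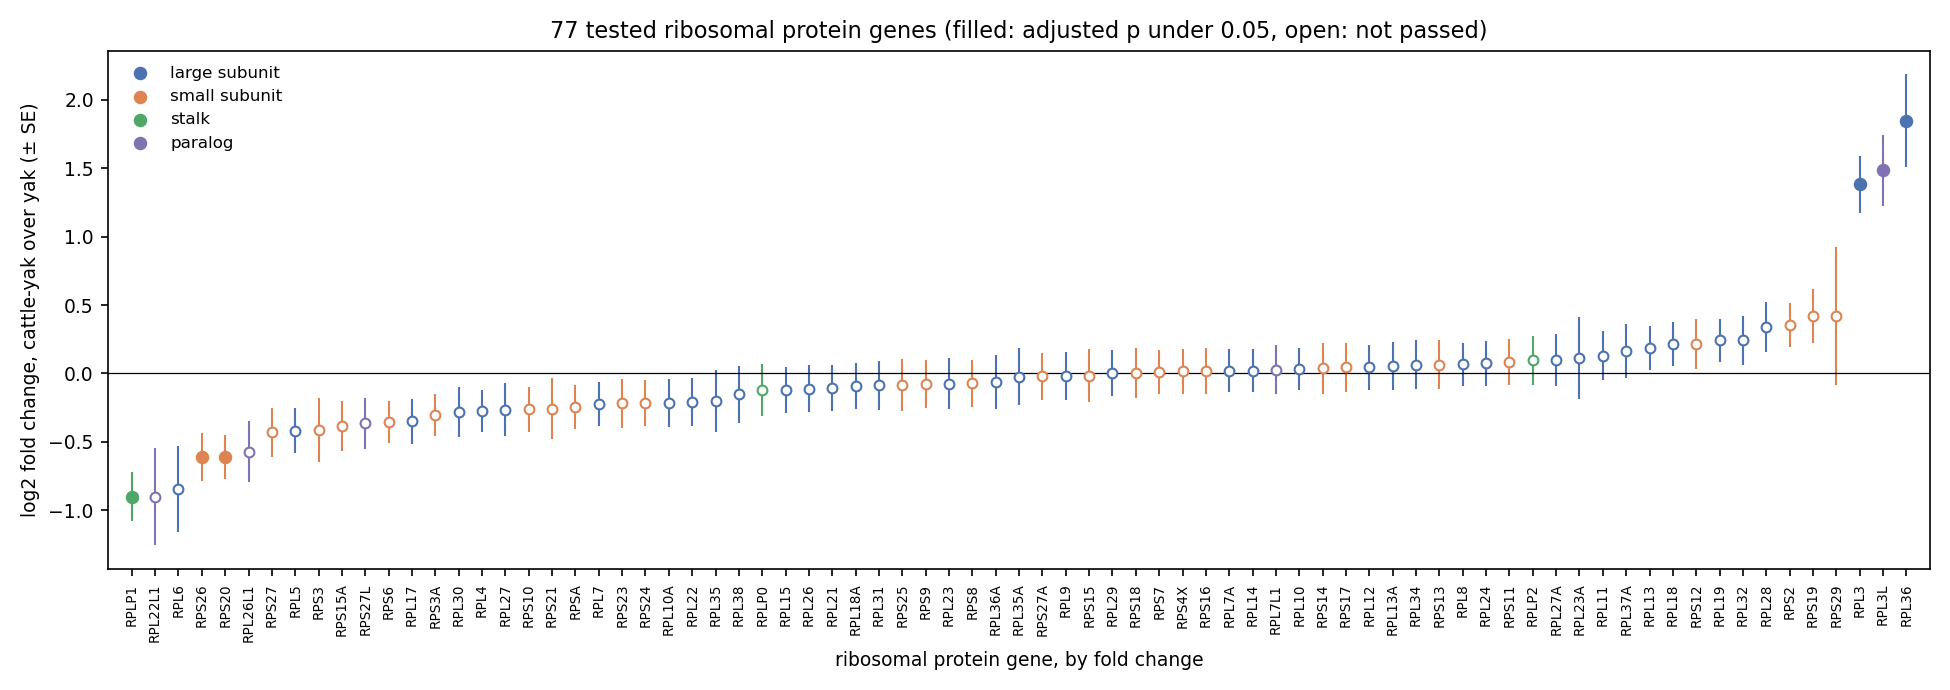
Log2 fold change of cattle-yak over yak (vertical axis, with SE) for 77 tested ribosomal protein genes, ordered by that value and coloured by subunit, stalk or paralog. Filled points passed the test; 68 of the 77 lie within 0.5 of 0.

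By class, 2 of 40 tested large-subunit genes rose and none fell (median -0.01). They were RPL3 and RPL36, the latter a transcript whose deposited description names nucleolin. Of 30 small-subunit genes, 2 fell and none rose (median -0.05). They were RPS26 and the identifier chosen for RPS20, in which 97.6% of reads were named SCP2. Of the 3 stalk genes, 1 fell. Of 5 paralogs, 1 identifier rose, that of RPL3L, in which most reads were named for another gene and those named RPL3L fell.

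Summed over all members, the family took 3.48%, 3.79% and 4.004% of counts in the cattle-yak libraries, and 3.53%, 3.66% and 3.22% in the yak libraries. The groups overlap, with means of 3.76% ± 0.262 in cattle-yak and 3.47% ± 0.226 in yak (SD, n = 3 each). As a share of the TMM-scaled library size the order turned, with 3.57% in cattle-yak and 3.75% in yak. These sums take whole identifiers, so they include reads named for another gene, as in those of RPL3L and RPS20. Counting only reads that bear a member's symbol, in any identifier, the means were 3.12% of counts in cattle-yak and 2.95% in yak. The groups overlap there too. Within a group, members tended to be high or low together in the same library. Cattle-yak 3 was the highest of its group in 60 of 78 members, or 76.9%, where it was so in 31.2% of all genes. Yak 2 was the highest yak library in 51 members, or 65.4%, against 33.2% of all genes. The median member lay 0.21 above its group mean on the log2 scale in cattle-yak 3 and 0.14 below it in cattle-yak 1. Left without cattle-yak 3, the members' median log2 fold change was -0.15, and without cattle-yak 1 it was 0.08.

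**Figure D2:**
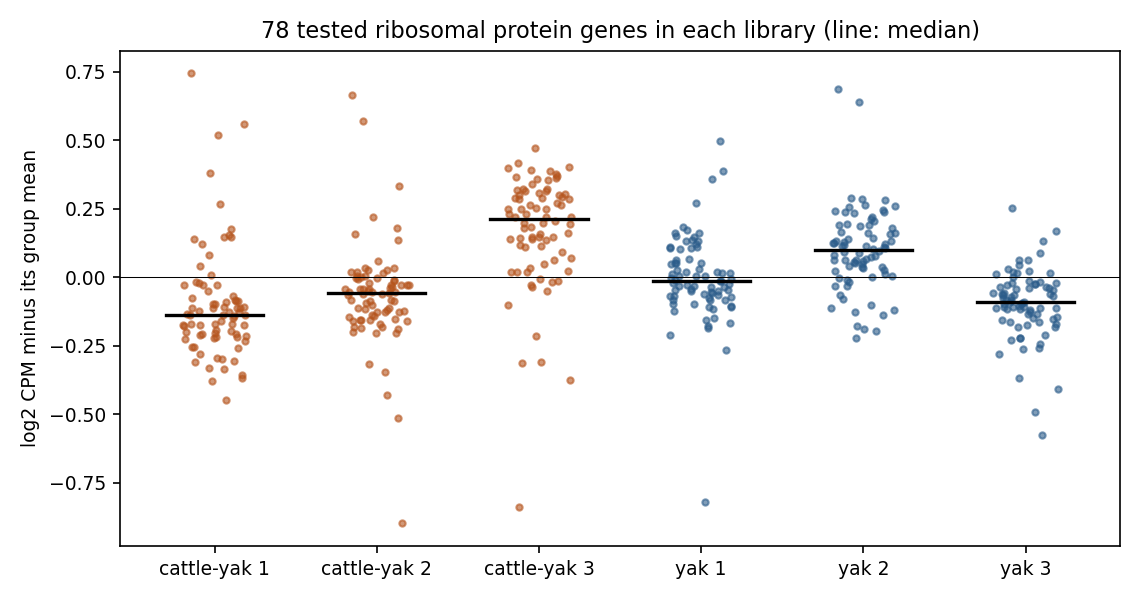
Deviation of each of the 78 members from its own group's mean (log2, vertical axis) in each library, cattle-yak left and yak right. The medians are -0.14, -0.06 and 0.21 in cattle-yak 1 to 3, and -0.01, 0.10 and -0.09 in yak 1 to 3.

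In the large subunit, RPL3, a core protein that reaches toward the peptidyl transferase centre, was the member with the smallest p. It had 75.8, 97.4 and 62.4 CPM in cattle-yak, against 30.3, 28.0 and 31.9 CPM in yak. Every cattle-yak library lay above every yak library. RPL3 rose, with a mean of 78.5 ± 17.6 CPM in cattle-yak and 30.05 ± 1.96 CPM in yak (SD, n = 3 each). The log2 fold change came to 1.38 ± 0.21 (SE, edgeR adjusted p = 0.000676). It rested on 172 to 253 reads per cattle-yak library and 64 to 70 per yak library. Its main transcript, ENSBGRT00000005832, rose by 1.49 on the log2 scale (edgeR adjusted p = 0.00111), and the assembled transcript TALONT001670366 by 1.39 (edgeR adjusted p = 0.0179, and up to 0.0861 without 1 library).

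Reads named for RPL3L, the muscle paralog, were fewer in cattle-yak, although the identifier that holds them had more reads there. The identifier that holds RPL3L had 751, 1624 and 882 CPM in cattle-yak, against 428, 378 and 358 CPM in yak. As an identifier it rose (log2 fold change 1.48 ± 0.26, edgeR adjusted p = 0.00436). However, 65.6% of its reads lay in transcripts named MSRB1, a selenoprotein that reduces oxidised methionine, whose gene lies next to RPL3L in the RefSeq table of assembly Bosgru_T2T1.0. MSRB1-named reads numbered 1412, 3797 and 1764 in cattle-yak, against 154, 131 and 75 in yak. Cattle-yak 2 held the most of them.

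Reads named RPL3L came to 199, 162 and 242 CPM in cattle-yak, against 360, 321 and 323 CPM in yak. All cattle-yak libraries lay below all yak libraries. RPL3L-named reads fell, with 201 ± 40.0 CPM in cattle-yak and 335 ± 21.7 CPM in yak (SD, n = 3 each). The log2 fold change came to -0.73 ± 0.18 (edgeR adjusted p = 0.0160). The fits of these reads without single libraries were added after seeing the data, and the call was lost without cattle-yak 2, yak 1 or yak 3 (edgeR adjusted p = 0.0572, 0.0618 and 0.0524). The reference transcript ENSBGRT00000048123, named RPL3L, also fell (log2 fold change -0.80, edgeR adjusted p = 0.0146, and up to 0.0726 without 1 library).

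All reads of the RPL3 identifier were then set against RPL3L-named reads. Of those RPL3 reads, 44.6% bear the symbol and the rest only the description of the protein. RPL3 took 27.6%, 37.5% and 20.5% of both together in cattle-yak, against 7.76%, 8.02% and 8.97% in yak. The means were 28.5% ± 8.54 in cattle-yak and 8.25% ± 0.638 in yak (SD, n = 3 each), and they differed by 20.3 percentage points. A two-sided exact permutation test gave p = 0.1, the smallest that 3 against 3 allows. Both kinds of reads had already separated the groups, in opposite directions. The share therefore had to separate them too, and this test adds no support. The share counts reads, not reads per length, and RPL3L-named reads outnumbered RPL3 reads in all 6 libraries.

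**Figure D3:**
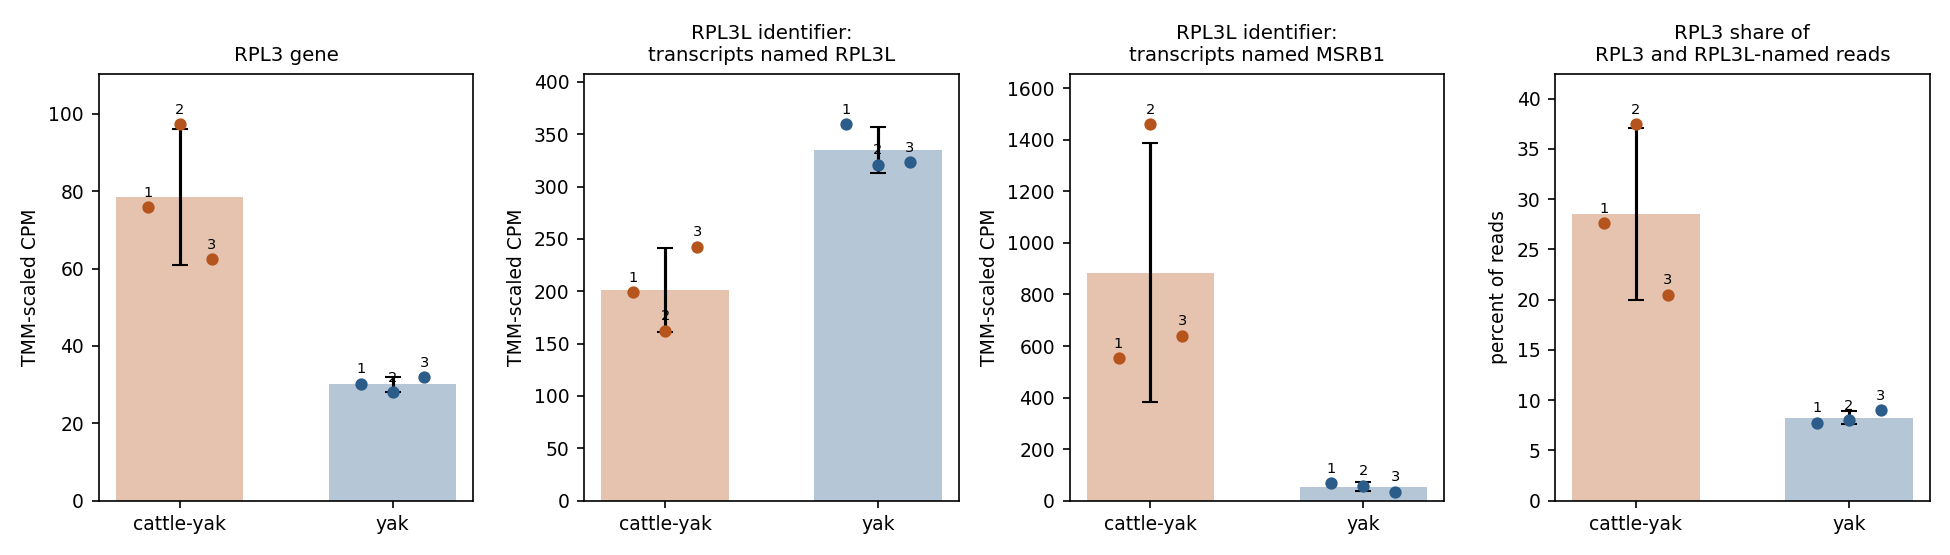
Levels of RPL3, of RPL3L-named reads and of MSRB1-named reads (CPM), and RPL3 as a percentage of RPL3 and RPL3L-named reads, by library, with group mean and SD. In the last panel cattle-yak lies between 20.5% and 37.5% and yak between 7.76% and 8.97%.

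RPL36, another large-subunit protein, rested on 1 assembled transcript with few reads. It had 54, 69 and 99 reads in cattle-yak, against 9, 26 and 17 in yak. RPL36 rose, with 27.9 ± 7.50 CPM in cattle-yak and 7.71 ± 3.68 CPM in yak (SD, n = 3 each). The log2 fold change came to 1.85 ± 0.34 (edgeR adjusted p = 0.00326). The deposited description of this transcript names nucleolin, not a ribosomal protein. The reference identifier that also carries the symbol held 14, 17 and 15 reads in cattle-yak and 15, 18 and 10 in yak.

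The other large-subunit genes did not pass. RPL10, which completes the large subunit late in its assembly, averaged 1665 ± 151 CPM in cattle-yak and 1629 ± 26.6 CPM in yak. RPL5, which with RPL11 can bind the p53 regulator MDM2, had 351, 317 and 327 CPM in cattle-yak, against 483, 479 and 367 CPM in yak (log2 fold change -0.42 ± 0.17, edgeR adjusted p = 0.129). RPL6 had 270, 120 and 130 CPM in cattle-yak, against 394, 271 and 270 CPM in yak (log2 fold change -0.85 ± 0.31, edgeR adjusted p = 0.129). In both groups the library numbered 1 was the highest. RPL6 passed without cattle-yak 1 (log2 fold change -1.29, edgeR adjusted p = 0.00141), and its reference transcript ENSBGRT00000036861 fell (log2 fold change -1.06, edgeR adjusted p = 0.00215).

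In the stalk, RPLP1 fell while its partners did not pass. RPLP1, which pairs with RPLP2 to form the tips that contact elongation factors, had 1275, 1197 and 1659 CPM in cattle-yak, against 2381, 2964 and 2377 CPM in yak. The groups did not overlap. RPLP1 fell to 1377 ± 248 CPM in cattle-yak, against 2574 ± 338 CPM in yak (SD, n = 3 each). The log2 fold change came to -0.90 ± 0.18 (edgeR adjusted p = 0.00484). Without any 1 library the change was between -1.03 and -0.78 and still passed.

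RPLP0, the base on which the pairs sit, averaged 1169 ± 228 CPM in cattle-yak and 1274 ± 243 CPM in yak (log2 fold change -0.12, edgeR adjusted p = 0.735). RPLP2 averaged 280 ± 52.8 CPM in cattle-yak and 262 ± 39.2 CPM in yak (log2 fold change 0.09, edgeR adjusted p = 0.796). RPLP1 took less of the reads of the 3 genes in cattle-yak, with 50.6%, 47.2% and 48.4% in cattle-yak, against 65.0%, 61.7% and 61.5% in yak. The difference was -14.0 percentage points (two-sided exact permutation p = 0.1, the smallest possible here). RPLP1 had already separated the groups, so this test adds no independent support. A single reference transcript, ENSBGRT00000037015, held 97.1% ± 0.299 of RPLP1 reads in cattle-yak and 97.3% ± 0.424 in yak, and it fell by 0.87 (edgeR adjusted p = 0.00278).

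**Figure D4:**
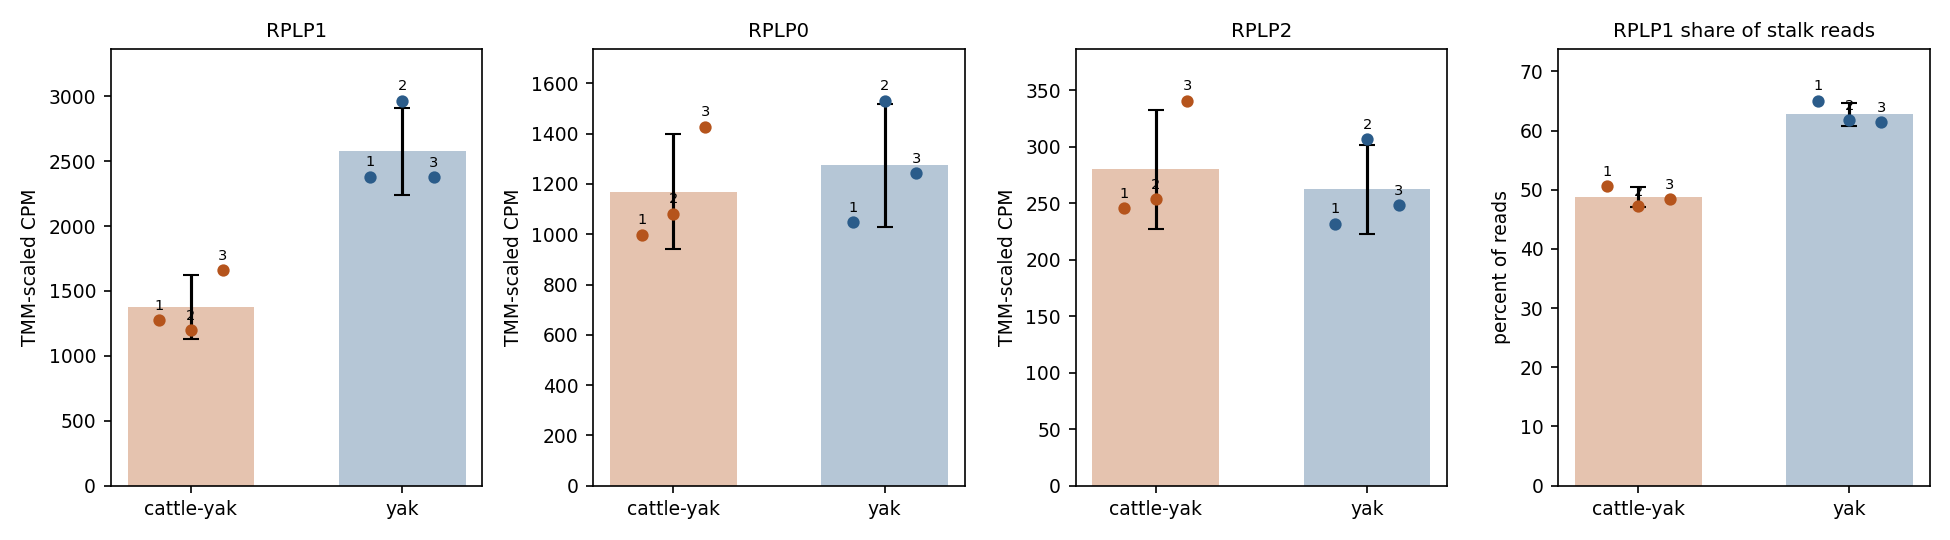
Levels of RPLP0, RPLP1 and RPLP2 (CPM) and RPLP1 as a percentage of the reads of the 3 genes, by library, with group mean and SD. RPLP1 lies between 1197 and 1659 CPM in cattle-yak and between 2377 and 2964 CPM in yak, while RPLP0 and RPLP2 overlap.

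In the small subunit, RPS26, which lies at the exit of the mRNA channel, had 189, 183 and 244 CPM in cattle-yak, against 305, 355 and 283 CPM in yak. The groups did not overlap. RPS26 fell, with 205 ± 33.9 CPM in cattle-yak and 314 ± 36.8 CPM in yak (SD, n = 3 each). The log2 fold change came to -0.61 ± 0.18 (edgeR adjusted p = 0.0361). The call was lost in 5 of 6 fits that left out 1 library, the exception being the fit without cattle-yak 3, with adjusted p up to 0.145. It was also lost where library size alone set the scaling (0.0991), with reference transcripts only (0.133), and with transcripts bearing the symbol only (0.277), which leave out the main transcript.

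The identifier chosen for RPS20, a protein of the small subunit's head, fell as well (log2 fold change -0.61 ± 0.16, edgeR adjusted p = 0.0242), but 97.6% of its reads were in transcripts named SCP2, a lipid transfer protein. In the RefSeq table SCP2 and RPS20 lie on different chromosomes. RPS20-named reads numbered 11, 13 and 11 in cattle-yak, against 23, 21 and 23 in yak. Fitted alone they fell by 1.16 (edgeR adjusted p = 0.0398). The identifier's call was lost in 5 of 6 fits that left out 1 library (edgeR adjusted p up to 0.0962), the exception being the fit without cattle-yak 1. It was also lost where library size alone set the scaling (0.0961) and with reference transcripts only (0.125).

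Other small-subunit genes were close between the groups or did not pass. RPS6, the substrate of the S6 kinases, had 589, 602 and 610 CPM in cattle-yak, against 840, 709 and 755 CPM in yak. It did not overlap and did not pass (log2 fold change -0.36 ± 0.16, edgeR adjusted p = 0.167). RPS3A averaged 1298 ± 62.5 CPM in cattle-yak and 1604 ± 72.3 CPM in yak (edgeR adjusted p = 0.236). RPSA, also known as the laminin receptor precursor, averaged 911 ± 88.1 CPM in cattle-yak and 1082 ± 110 CPM in yak (edgeR adjusted p = 0.375). RPS27A, made as a fusion with ubiquitin, averaged 894 ± 146 CPM in cattle-yak and 907 ± 88.3 CPM in yak (edgeR adjusted p = 0.956).

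The remaining paralogs did not pass. RPL22L1, a paralog of RPL22, had 31.7, 11.5 and 27.2 CPM in cattle-yak, against 59.7, 42.0 and 30.1 CPM in yak (log2 fold change -0.90 ± 0.36, edgeR adjusted p = 0.144). Over all identifiers with its symbol the log2 fold change was -0.21. RPS27L, a p53-inducible paralog of RPS27 in human, averaged 87.7 ± 15.7 CPM in cattle-yak and 113 ± 13.3 CPM in yak (edgeR adjusted p = 0.241). RPL7L1 did not differ beyond its error (log2 fold change 0.03 ± 0.18, edgeR adjusted p = 0.947). Members whose groups did not overlap but which missed the threshold had small differences. RPL13, RPL19 and RPS2 were higher in every cattle-yak library than in any yak library, with log2 fold changes of 0.19, 0.24 and 0.36. RPL4, RPL5, RPL17, RPL26L1, RPS3A, RPS6, RPS15A, RPS27 and RPS27L were lower in every cattle-yak library than in any yak library, with log2 fold changes from -0.57 for RPL26L1 to -0.27 for RPL4. Among these, levels of reads that bear the symbol were compared by library for RPS15A and RPL26L1 only, and overlapped in both. They were 16.4 ± 2.50 CPM in cattle-yak and 16.1 ± 3.27 CPM in yak for RPS15A. For RPL26L1 they were 6.46 ± 1.62 CPM in cattle-yak and 5.95 ± 1.72 CPM in yak. Of the RPL26L1 identifier, 85.7% of reads bore no symbol.

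FAU, which encodes a ribosomal protein fused to a ubiquitin-like protein and falls outside the symbol rule, did not pass either (log2 fold change -0.10 ± 0.19, edgeR adjusted p = 0.788).

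Some members whose totals did not pass differed in the transcripts they used. The members held 2156 transcripts, a median of 24 per gene, of which 540 had at least 30 reads. In cattle-yak 20 of these rose and 13 fell (edgeR adjusted p under 0.05 over all transcripts), or 6.11% beside 12.8% of all 27036 transcripts tested (6.52% rose and 6.27% fell). With library size alone, 34 rose and 7 fell. Of the 33, 17 lay in genes whose total did not pass, and 8 were named for another gene. Relative transcript usage, tested in 63 members, changed in 6, or 9.52% beside 5.38% of all 2863 genes tested. Among these 6, the identifiers of RPL3L, RPS7 and RPS15A also hold reads named for a neighbouring gene. With a minimum transcript share of 10%, usage changed in 2 of 41 members, or 4.88% beside 3.58% of all genes. Genes were not matched for reads in these shares. Of 78 tested members 66 had at least 1000 reads, against 1169 of the 10397 genes tested for level. Whether members differ in usage from other genes of similar depth was not tested.

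RPL7A, a large-subunit protein, did not pass as a gene (log2 fold change 0.02 ± 0.16, edgeR adjusted p = 0.956), but its mix of transcripts changed. Gene totals were 661, 724 and 761 CPM in cattle-yak and 665, 766 and 687 CPM in yak. The reference transcript ENSBGRT00000048040 took 44.0%, 42.7% and 41.7% of RPL7A reads in cattle-yak, against 21.2%, 20.5% and 19.9% in yak. The groups were far apart relative to their spread (42.8% ± 1.15 and 20.5% ± 0.636), and the transcript rose by 1.11 (edgeR adjusted p = 0.000451). The other main transcript, ENSBGRT00000048035, took 51.2% ± 0.293 in cattle-yak and 74.9% ± 0.602 in yak. Usage changed (diffSpliceDGE adjusted p = 0.000434), also without any 1 library.

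RPS7, a small-subunit protein that can bind MDM2, likewise did not pass as a gene (log2 fold change 0.01 ± 0.16, edgeR adjusted p = 0.981). Its transcript ENSBGRT00000024941 took 11.1%, 10.7% and 10.8% of RPS7 reads in cattle-yak, against 2.46%, 2.59% and 3.18% in yak, and rose by 2.04 ± 0.23 (edgeR adjusted p = 1.92e-05). That transcript bears the symbol COLEC11, a collectin gene that lies next to RPS7 in the RefSeq table. Reads named RPS7 averaged 547 ± 60.8 CPM in cattle-yak and 594 ± 46.1 CPM in yak and overlapped. The main assembled transcript, TALONT001011573, took 80.3% ± 1.62 in cattle-yak and 91.9% ± 0.625 in yak. Usage changed (diffSpliceDGE adjusted p = 1.23e-05), also without any 1 library.

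**Figure D5:**
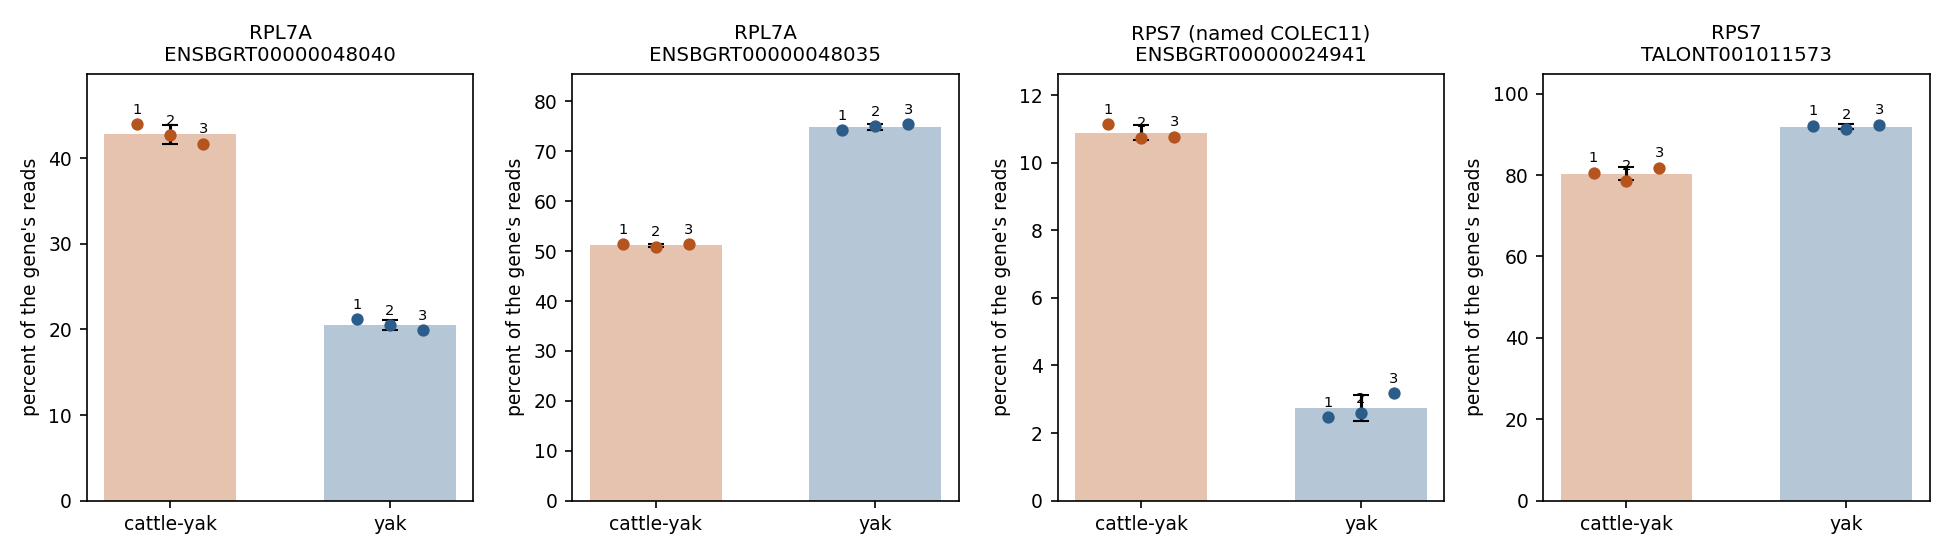
Share of the gene's reads (%) in the 2 main transcripts of RPL7A and of RPS7, by library, with group mean and SD. The groups do not overlap in any panel; in RPL7A the means are 42.8% in cattle-yak and 20.5% in yak for ENSBGRT00000048040.

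Usage of the RPL3L identifier changed too (diffSpliceDGE adjusted p = 3.67e-05), also without any 1 library. There the MSRB1-named TALONT001486207 took 75.4% ± 9.75 of reads in cattle-yak and 12.8% ± 3.20 in yak. RPL30, RPS15A and RPL18 passed with less margin. In RPL30, which also binds selenocysteine insertion elements, TALONT000262826 took 3.44% ± 1.19 in cattle-yak and 8.75% ± 0.895 in yak (diffSpliceDGE adjusted p = 0.0111), and the call was lost without cattle-yak 2, cattle-yak 3 or yak 1 (up to 0.0594). In RPL18, TALONT000934457 took 9.09% ± 0.50 in cattle-yak and 5.41% ± 0.414 in yak (diffSpliceDGE adjusted p = 0.0493). In RPS15A, 74.7% of reads were named ARL6IP1, its neighbour in the RefSeq table (diffSpliceDGE adjusted p = 0.0362). The RPL18 and RPS15A calls each held in only 1 of the 6 fits that left out a library (adjusted p up to 0.203 and 0.240).

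Reference transcripts, as opposed to assembled ones, held 34.8% ± 0.582 of members' reads in cattle-yak and 38.0% ± 0.606 in yak, with no overlap. This summed share also moves with the levels of single members. RPLP1, which fell, had 97.1% of its reads in reference transcripts in cattle-yak and 97.3% in yak. In the RPL3L identifier the share was 8.68% ± 4.23 in cattle-yak and 37.1% ± 2.90 in yak. How much RPLP1 and RPL3L add to the summed difference was not tested. In 58 members with both kinds, the share was higher in cattle-yak without overlap in 10, or 17.2% beside 4.03% of all genes. It was lower without overlap in 8, or 13.8% beside 12.6%. The genes were not matched for reads here. Whether members differ in this from other genes of similar depth was therefore not tested. Among the 10 with a higher share the difference was largest in RPL35, with 66.0% ± 0.872 in cattle-yak and 57.1% ± 3.51 in yak. It was smallest in RPL22, with 0.351% ± 0.140 in cattle-yak and 0% in yak. Among the 8 with a lower share it ran from -28.4 percentage points in RPL3L to -1.25 in RPS3A. RPS7 is among the 10, with 11.0% in cattle-yak and 2.84% in yak, the same shares as its COLEC11-named reads.

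Lists of genes that build, regulate and police ribosomes were set beside the 10% of all genes called. Of 37 tested ribosome biogenesis genes, NCL rose and none fell, or 2.70% called (median log2 fold change 0.12). NCL, the nucleolar protein nucleolin, averaged 336 ± 14.4 CPM in cattle-yak and 220 ± 5.27 CPM in yak (log2 fold change 0.61 ± 0.15, edgeR adjusted p = 0.0209), with the name on 13.8% of its reads. Of 19 TOR signalling genes 15.8% were called: EIF4EBP1 and SESN1 rose and the RNA-binding protein LARP4 fell (log2 fold change -0.76 ± 0.23, edgeR adjusted p = 0.0483). EIF4EBP1, a TOR-controlled repressor of cap-dependent translation, averaged 97.5 ± 18.5 CPM in cattle-yak and 46.1 ± 8.54 CPM in yak (edgeR adjusted p = 0.00391). SESN1, a sestrin that restrains TOR, averaged 58.5 ± 2.75 CPM in cattle-yak and 12.5 ± 2.85 CPM in yak (edgeR adjusted p = 2.54e-05).

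Of 14 other mRNAs with a terminal pyrimidine tract, 1 rose and 2 fell, or 21.4% (median log2 fold change -0.14). PABPC1, the poly(A)-binding protein, rose to 76.0 ± 12.8 CPM in cattle-yak, against 29.6 ± 2.90 CPM in yak (edgeR adjusted p = 0.000577). EEF1A2, the elongation factor form of adult muscle, fell (log2 fold change -0.58, edgeR adjusted p = 0.0337), as did the initiation factor subunit EIF3E (-0.53, edgeR adjusted p = 0.0453). Of 11 quality control genes, HBS1L, a ribosome rescue factor, fell (-0.64, edgeR adjusted p = 0.0291) and none rose, or 9.09%.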

How the data were processed

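For 3 cattle-yak and 3 yak libraries, the authors deposited transcript read counts as whole numbers and, beside them, CPM. The counts alone were used here, and every CPM in the text is TMM-scaled. Among tools, fastp, GSNAP and minimap2 appear in the submitters' processing notes. Tool roles, genome build and counting software were not given in the sources used here. Identifiers are Ensembl names of Bos grunniens or names of assembled transcripts.

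Transcript counts were summed by gene identifier, leaving out 61 transcripts without one (at most 0.00249% of a library's counts). Genes and transcripts with at least 30 pooled reads went into edgeR 4.0.16 under R 4.3.3 (TMM, robust quasi-likelihood test, Benjamini-Hochberg adjusted p under 0.05 over all features). For usage, diffSpliceDGE was run on transcripts with 5% or more of a gene's reads. The SE is the log2 fold change over the square root of F. Scripts were tested on simulated counts.

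The gene carries the symbol of the identifier with most such reads. Of 81 members, 72 had over 90% of their reads in transcripts named or described as that protein. RPL3L, RPS20 and RPS15A had most reads named for another gene. Reads may be shared between overlapping genes or near-identical copies.

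Members and gene lists were chosen with earlier results of these data known. Named genes are members called in the gene or usage test, the 3 members with the largest log2 fold change each way (averaging 10 CPM or more), the 3 with most reads, preset members (RPS7, RPL3, RPL3L, the stalk, RPSA, RPS6, RPS27A, RPL22L1, RPS27L), and up to 3 called genes per list. RPL5, RPL7L1, RPL35, the members named for not overlapping and FAU were named after their values were seen. The RPL3 and RPLP1 shares and their permutation tests were not among the planned results. Values of 1 member and of 1 gene outside the symbol rule are not reported here, though both stay in the fits and counts. Alternatives were other filters and scalings, DESeq2 1.42.0, limma-voom (limma 3.58.1), a replicate block, other ways of assigning reads to symbols, and leaving out each library. Deviations of same-numbered libraries did not correlate (-0.04, -0.01 and 0.01), so the numbers were not taken as pairs. Tables and figures used Python 3.11.15, pandas 2.3.3, SciPy 1.17.1 and matplotlib 3.10.9.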

Additional observations from a re-analysis of the deposited data

How the results depend on the processing

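The 6 called members were the same with DESeq2, limma-voom, relative log expression scaling and edgeR's own filter. They were 7.69% of members, beside 7.37% of all genes with DESeq2, 7.15% with limma-voom and 10.02% with relative log expression scaling. With edgeR's own filter they were 7.79% of members, beside 12.6% of all genes. With no filter on low counts 8 passed, adding RPL22L1 (-0.97) and RPL6 (-0.91). That is 9.88% of 81 members, beside 4.56% of 31044 genes. Library size alone shifted the median of all genes to 0.23, and the calls of RPS20 (-0.41) and RPS26 (-0.43) were then lost while RPS2 and RPS19 passed. RPL3L turned round with how reads were assigned, with -0.60 from reference transcripts only, -0.73 from transcripts bearing the symbol, -0.72 from all identifiers with the symbol and -0.73 by symbol or description, the last chosen after seeing the data. Reference transcripts only gave 188 of 2125 genes called (8.85%) and 7 of 53 members (13.2%). RPL6, RPL8, RPL13 and RPS7 were gained, RPS20 and RPS26 lost, and RPL36, an assembled transcript, not tested. The RPS7 call there rests on reads named COLEC11, which take the same share of the identifier as its reference transcripts in every library. The number of genes called was 539 to 998 when 1 library was left out, of members 4 to 8, of transcripts 2100 to 3052, of member transcripts 18 to 33, of genes with changed usage 68 to 133 and of members with changed usage 3 to 6. DESeq2 called 2196 transcripts, 20 of them in members. Usage called 84 genes (3.58%) and 2 of 41 members (4.88%) with a minimum share of 10%. With no minimum share it called 313 genes (10.1%) and 14 of 72 members (19.4%). The Simes method called 49 genes (1.71%) and 4 of 63 members (6.35%). The difference in summed share was 0.161 to 0.424 points when 1 library was left out and -0.177 points of TMM-scaled size. With the replicate number as a block, 1010 genes (9.71%), 6 members (7.69%) and 3106 transcripts were called. By usage, 112 genes (3.91%) and 5 of 63 members (7.94%) were called with this block. RPL6 then passed (-0.92, adjusted p = 0.00667) and RPS26 did not (-0.62, adjusted p = 0.0570). Of 361 alternative values for 21 named genes, 331 stayed on their side of the threshold, 24 of them with the other sign in genes that did not pass either way, 20 lost the call, 6 gained it and 4 reversed. The causes were not tested. Depth limits RPL37, RPL39, RPS28 and RPL36. Counts are of PCR reads, so they can exceed the number of transcript molecules.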

Other observations

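An assembled RPL6 transcript, TALONT000578955, had 424, 7 and 22 reads in cattle-yak and 491, 14 and 31 in yak, so that it was high only in the libraries numbered 1. It took 61.3% of RPL6 reads in cattle-yak 1 and 55.5% in yak 1, and at most 6.15% in any other library. Of 10017 transcripts with at least 100 reads, it was the only one with at least 90% of its reads in those 2 libraries and at least 30% in each, and no other pairing of a cattle-yak with a yak library held any such transcript.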
